A study of Mus musculus with 4 samples.

Results

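A set of 40 genes that encode parts of the DNA replication and mitosis machinery was followed across the cell classes of 4 mouse single-cell RNA libraries. The members were named in a fixed list, and all 40 were found, each as 1 row, among the 30406 genes shared by the gene tables of the 4 libraries. They split into 15 genes of DNA replication and 25 genes of mitosis. The libraries came from C57BL6J mice that carried KPCA syngeneic cancer cell lines, and the labels give the cell type as fallopian tube epithelial cells. Omental tumors grown from KPCA.A, from KPCA.B or from KPCA.C were taken at 8 weeks of age and pooled, 4 tumors per library. The remaining library held KPCA ascites, the cell-bearing fluid of the abdomen, at 9 weeks of age, and its line of origin is not given. The omentum is a fat and immune tissue of the abdomen to which ovarian cancers often spread. The labels name no control tissue, no treatment and no further genotype, and they give the lines as KPCA without spelling out the letters.

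Each group had 1 library, so no difference below has a replicate check, and neither a test nor a p-value was possible. All intervals are 95% intervals and cover counting error only. Barcodes in the deposited files numbered 5703 for the KPCA.A tumors, 3358 with KPCA.B, 4110 with KPCA.C and 3118 in the ascites library, against 5000 cells per library in the labels. After filtering, 2648, 2586, 3098 and 2921 cells were used, with median depths of 7910, 7958, 14660 and 2077 UMIs in that order (molecular tags, so that copies of the same transcript made by amplification count as 1). Mitochondrial transcripts made up more than 15% of the UMIs in 53.1% of the KPCA.A barcodes, 22.5% of those of KPCA.B, 24.3% of those of KPCA.C and 5.42% of the ascites barcodes. Barcodes shared between libraries were few, from 0 to 19 per pair.

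Cells were assigned to classes by marker genes, and each class name ends in "-like" because it rests on markers alone. Of the ascites cells, 1412 passed no gate, against 312, 195 and 441 in KPCA.A, KPCA.B and KPCA.C. Tumor epithelial-like cells were gated on keratin and tumor markers, among them Cdkn2a. The summed cells of that class had 593 CPM of Cdkn2a (UMIs per 1000000 UMIs of the class) in KPCA.A, 635 in KPCA.B and 492 in KPCA.C, and no other class with at least 50 cells exceeded 66.1 CPM. Ascites had no tumor epithelial-like class of that size, so the label's epithelial cell type was not found there by this gate.

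A dividing cell copies its DNA in S phase and separates the copies in M phase, and the transcripts of the proteins involved rise and fall with these phases. The origin factors Cdc6 and Cdt1 load the helicase Mcm2 to Mcm7 before S phase begins. In S phase the clamp Pcna tethers the polymerases, and ribonucleotide reductase (Rrm1, Rrm2), Tyms and Tk1 supply nucleotides. Entry into mitosis is driven by Cdk1 with cyclins A and B, the spindle is built by kinesins and aurora kinases, and Cdc20 and Ube2c mark the cyclins for destruction. Most cells of adult tissues are outside the cycle and hold few of these transcripts, whereas mature neutrophils no longer divide, which makes them a useful background in droplet data.

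Promoter sequences are shown because the groups are known to be driven by different factors: E2F factors act on many replication genes, whereas a complex that binds the cell cycle homology element, often with NF-Y at a CCAAT box, acts on many mitosis genes. RefSeq promoters (GRCm38.p6, 250 bases before to 50 bases after a gene's start) were found for 34 of the 40 members, 21 of mitosis and 13 of replication. The 120 bases before the start are printed for 6 of the 10 members whose levels are given in every class, chosen after the matches were seen, in the gene's own direction. Capitals mark matches on either strand to the element motif TTTGAA, to CCAAT and to the E2F-like motifs TTTNGCG and TTCCCGC.
Cdc20 (chr4:118437344-118437463, minus strand): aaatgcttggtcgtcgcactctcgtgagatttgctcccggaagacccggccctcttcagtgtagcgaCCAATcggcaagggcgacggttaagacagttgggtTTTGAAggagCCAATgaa
Cdk1 (chr10:69352913-69353032, minus strand): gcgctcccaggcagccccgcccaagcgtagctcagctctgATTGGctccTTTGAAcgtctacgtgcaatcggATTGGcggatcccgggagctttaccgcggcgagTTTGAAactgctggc
Mki67 (chr7:135716380-135716499, minus strand): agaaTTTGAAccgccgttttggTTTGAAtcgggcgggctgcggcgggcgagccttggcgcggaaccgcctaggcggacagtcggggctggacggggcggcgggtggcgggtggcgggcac
Top2a (chr11:99024190-99024309, minus strand): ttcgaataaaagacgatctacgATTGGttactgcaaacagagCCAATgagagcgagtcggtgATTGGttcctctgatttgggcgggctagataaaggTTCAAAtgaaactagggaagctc
Mcm5 (chr8:75109389-75109508, plus strand): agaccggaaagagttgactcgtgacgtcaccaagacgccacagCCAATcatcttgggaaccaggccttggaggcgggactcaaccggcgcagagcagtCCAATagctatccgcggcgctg
Uhrf1 (chr17:56303217-56303336, plus strand): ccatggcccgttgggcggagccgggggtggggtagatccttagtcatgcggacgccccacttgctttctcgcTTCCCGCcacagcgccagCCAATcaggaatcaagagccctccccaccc

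The printed mitosis promoters of Cdc20, Cdk1, Mki67 and Top2a each hold TTTGAA or its reverse complement, and those of Mcm5 and Uhrf1 do not. Over the full 300 bases, TTTGAA was found in 16 of the 21 mitosis members and in 1 of the 13 replication members. Among all 27025 genes whose promoters were used, 20.2% held it. CCAAT was found in 18 of the 21 mitosis members, in 9 of the 13 replication members and in 41.1% of all genes. TTTGAA and CCAAT stood together in 15 mitosis members, in 1 replication member and in 8.97% of all genes. Either E2F-like motif was found in 8 replication members, in 1 mitosis member and in 9.54% of all genes. Within the 120 bases, the mitosis gene Ccnb1 held CCAAT but not TTTGAA, Pcna and Rrm2 held CCAAT, and Cdc6 held none of the motifs. A match describes the sequence and does not show that a factor binds there.

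The share of cycling cells was measured after every cell had been thinned to 1000 UMIs, since deeper cells show more transcripts, and shallower cells were left out. A cell was called cycling when it held at least 2 UMIs from at least 2 genes of the replication group or of the mitosis group. Tumor epithelial-like cells had the highest share in each tumor library among the classes with at least 50 usable cells. Cycling cells made up 38.02% of 810 tumor epithelial-like cells in KPCA.A (34.7 to 41.5%), 43.8% of 290 in KPCA.B (38.0 to 49.7%) and 36.5% of 1030 in KPCA.C (33.6 to 39.5%). The 3 intervals overlap. Neutrophil-like cells of KPCA.A, the background class, had 1 cycling cell among 160, or 0.625% (0.0158 to 3.43%), at a median depth of 1386 UMIs in the cells not called cycling.

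Among the host classes the cycling share ranged from near this background to about the level of the tumor cells. Mesothelial-like cells, which line the abdominal cavity, had 30.2% of 53 cells in KPCA.A (18.3 to 44.3%) and 20% of 60 in KPCA.B (10.8 to 32.3%). Plasma cell-like cells, the antibody-secreting stage of the B lineage, had 22.5% of 306 cells in KPCA.B (17.99 to 27.6%). Fibroblast-like cells had 17.1% of 123 cells in KPCA.A (10.9 to 24.9%) and 5.45% of 110 in KPCA.C (2.03 to 11.5%). Endothelial-like cells of KPCA.A had 12.3% of 81 (6.08 to 21.5%). Duct-like cells of KPCA.A, gated on genes of secretory ducts, had 2.99% of 67 (0.364 to 10.4%), and none of them was called for the mitosis group.

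Lymphocyte classes lay between these ends. NK cell-like cells of KPCA.B had 15.3% cycling of 59 (7.22 to 27.0%), T cell-like cells 12.02% of 208 in KPCA.B (7.93 to 17.2%) and 13.3% of 166 in KPCA.C (8.50 to 19.4%). B cell-like cells had 7.27% of 578 in KPCA.B (5.29 to 9.70%) and 10.1% of 69 in KPCA.C (4.18 to 19.8%). The values of KPCA.B and KPCA.C overlapped in both lymphocyte classes that could be compared.

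**Figure D1:**
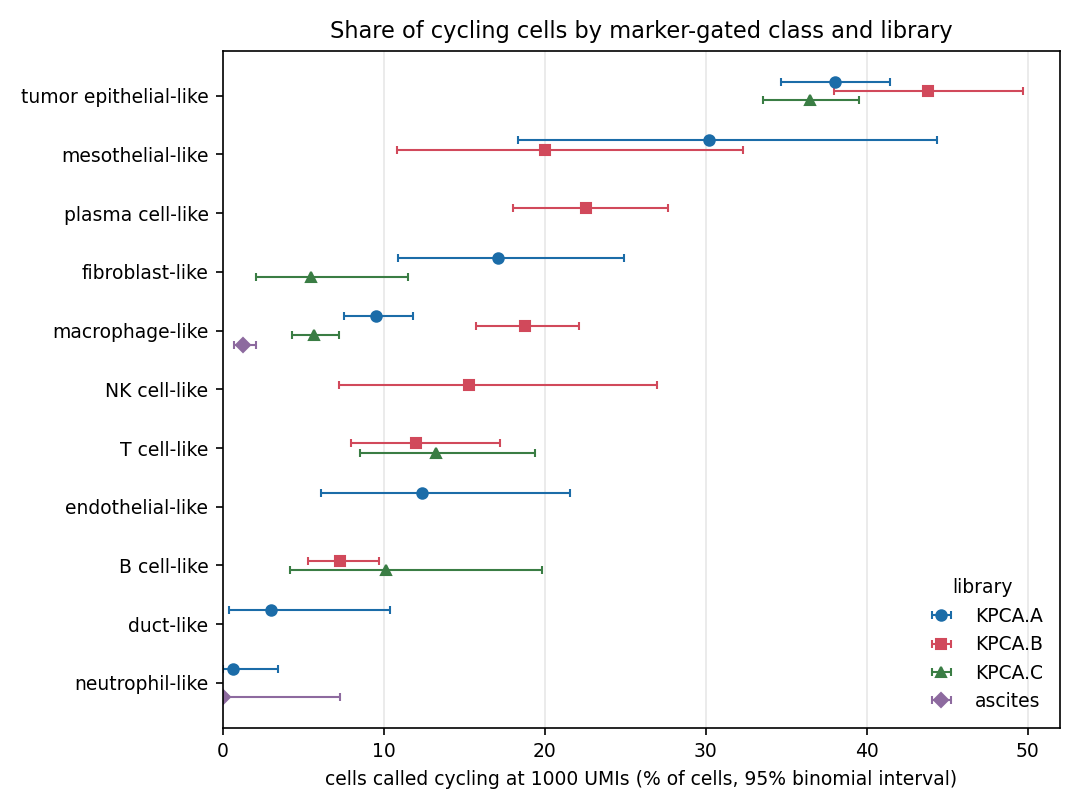
Share of cells called cycling at 1000 UMIs (x axis, percent) for each marker-gated class (y axis), with 1 point per library and its 95% binomial interval. Tumor epithelial-like cells lie between 36.5% and 43.8%, neutrophil-like cells near 0, and macrophage-like cells spread from 1.26% in ascites to 18.8% in KPCA.B.

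Macrophage-like cells showed the widest spread between libraries. The share was 9.51% of 757 cells in KPCA.A (7.52 to 11.8%), 18.8% of 607 in KPCA.B (15.7 to 22.1%), 5.64% of 1029 in KPCA.C (4.31 to 7.23%) and 1.26% of 1189 in ascites (0.708 to 2.07%). None of these 4 intervals overlaps another. Without thinning the shares were 43.6%, 65.7%, 65.7% and 6.44%. The level of the share depends on the thinning depth: in KPCA.A it was 6.13% at 500 UMIs and 16.3% at 2000 UMIs, and the order of the libraries was the same at both depths.

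Those dividing cells made up different mixtures in the tumors. Tumor epithelial-like cells were 69.5% of the 443 cycling gated cells of KPCA.A (65.0 to 73.8%) and 76.1% of the 494 of KPCA.C (72.1 to 79.8%), but 31.0% of the 410 of KPCA.B (26.5 to 35.7%). In KPCA.B macrophage-like cells gave 27.8%, plasma cell-like cells 16.8% and B cell-like cells 10.2% of the cycling cells. These fractions depend on the number of cells recovered per class as well as on the share that cycles.

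Within tumor epithelial-like cells, mitosis members gave more calls and more UMIs than replication members. The mitosis group holds more genes than the replication group, so neither measure shows whether more cells were in M phase than in S phase. Cells called for the mitosis group alone were 52.6% of the cycling cells in KPCA.A, 55.9% in KPCA.B and 53.7% in KPCA.C, and those called for the replication group alone were 19.2%, 20.5% and 17.8%. In the summed cells, replication members reached 905 CPM in KPCA.A, 987 in KPCA.B and 815 in KPCA.C, and mitosis members 2292, 2654 and 2323 CPM. Mitosis members thus took 71.7%, 72.9% and 74.0% of all member UMIs. Cycling tumor cells were also deeper than the rest, with a median of 45541 against 32378 UMIs in KPCA.A, 40328 against 27879 in KPCA.B and 71688 against 53686 in KPCA.C.

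Between the tumor lines few members differed in tumor epithelial-like cells. A difference of at least 1.5-fold in CPM was used as the call, over genes with at least 50 UMIs in the pair of sums. In KPCA.B against KPCA.A, 4 of 40 members were higher and 1 was lower past this limit, where 15.9% of all genes tested were higher and 14.1% lower. In KPCA.B against KPCA.C, 8 members were higher and 1 was lower, beside 25.3% and 19.2% of all genes. In KPCA.A against KPCA.C, 1 member was higher and none lower, beside 18.7% and 14.5% of all genes. These 3 comparisons share their libraries pairwise. The members' median log2 ratios were 0.21, 0.23 and 0.02, against 0.03, 0.08 and 0.05 over all genes tested.

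Among the replication members of the tumor cells, the largest difference lay in Uhrf1, which guides DNA methylation to newly copied strands. Uhrf1 stood at 65.6 CPM in KPCA.A, 97.0 in KPCA.B and 41.3 in KPCA.C, so KPCA.B was 2.35-fold above KPCA.C (2.18 to 2.52) and KPCA.A 1.59-fold above it (1.497 to 1.68). The helicase subunit Mcm7 followed the same order, with 109, 133 and 77.4 CPM, and KPCA.B was 1.72-fold above KPCA.C (1.62 to 1.83). Another helicase subunit, Mcm5, had 36.8 CPM in KPCA.A, 50.8 in KPCA.B and 37.2 in KPCA.C. In contrast, the clamp Pcna was lowest in KPCA.B, at 141 CPM against 173 in KPCA.A and 171 in KPCA.C. Rrm2, the small subunit of ribonucleotide reductase, had 35.9, 34.1 and 39.7 CPM, and the origin factor Cdc6 15.2, 15.2 and 13.9 CPM. Gins2, part of the active helicase, was higher in KPCA.C, at 28.5 CPM against 19.8 in KPCA.A and 19.7 in KPCA.B.

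Some mitosis members stood higher in KPCA.B tumor cells, although the share of all members past the fold did not exceed that of all genes. Cenpe, a kinetochore motor, reached 177 CPM there against 103 in KPCA.A and 107 in KPCA.C, or 1.71-fold over KPCA.A (1.62 to 1.81). Cenpf, a large kinetochore protein, had 149, 241 and 133 CPM in KPCA.A, KPCA.B and KPCA.C. Nusap1, which bundles spindle microtubules, had 60.1, 99.5 and 63.9 CPM, and the microtubule depolymerase Kif2c 22.6, 34.3 and 18.4 CPM. Members with the opposite order were Cdk1, the kinase of mitotic entry, with 87.5, 55.6 and 79.0 CPM, and Aurkb, the kinase of the chromosomal passenger complex, with 23.0, 16.6 and 26.7 CPM. Aurkb's partner Birc5 had 112, 87.3 and 127 CPM, and the centromere gene Cenpa 107, 90.5 and 100 CPM. Cyclin B1 (Ccnb1) had 58.2, 68.0 and 71.9 CPM, and Top2a, the topoisomerase that untangles sister chromatids, 366, 395 and 401 CPM. Hmmr was lowest in KPCA.A, at 50.9 CPM against 61.2 in KPCA.B and 73.7 in KPCA.C. Cdc20, the activator of cyclin destruction, had 43.0, 55.1 and 42.0 CPM, and the proliferation marker Mki67 124, 173 and 123 CPM. Without the 5 cells with most member UMIs in each library, KPCA.B exceeded KPCA.A in 2 members instead of 4.

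Epcam, an adhesion protein of epithelia, split the tumor cells further. In KPCA.A, 33.7% of 166 cells with Epcam at 2 or more UMIs per 10000 were cycling (26.6 to 41.5%), against 39.1% of the other 644 (35.3 to 43.0%). In KPCA.B the values were 40.2% of 87 (29.9 to 51.3%) and 45.3% of 203 (38.3 to 52.4%). The cells without this Epcam level had the higher value in both lines, with intervals that overlap, and KPCA.C had too few cells above the level for a value. In KPCA.B the mitosis members summed to 1902 CPM in the Epcam cells and to 3012 CPM in the rest.

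In macrophage-like cells most members reached their highest level in KPCA.B. The replication members summed to 566 CPM in KPCA.A, 688 CPM in KPCA.B, 355 CPM in KPCA.C and 127 CPM in ascites. Mitosis members summed to 616, 1300, 317 and 68.9 CPM in the same order. The tumor libraries did not share a balance: mitosis members took 52.1% of member UMIs in KPCA.A (50.9 to 53.3%), 65.4% in KPCA.B (64.7 to 66.1%) and 47.2% in KPCA.C (46.2 to 48.2%). As means over cells, where each cell counts alike, all members together were lower in the tumor libraries, at 774 CPM against 1181 CPM in the summed cells of KPCA.A, 1395 against 1988 in KPCA.B and 514 against 673 in KPCA.C.

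Against KPCA.A, 25 of 40 members were at least 1.5-fold higher in KPCA.B macrophage-like cells and none was lower, where 12.8% of all genes were higher and 12.1% lower. Against KPCA.C, 35 of 40 were higher and none lower, beside 15.4% and 12.5% of all genes. KPCA.A also exceeded KPCA.C in 33 of 40 members, with none lower, beside 7.08% and 6.57% of all genes. The members' median log2 ratios were 0.64, 1.35 and 0.63, and those of all genes tested 0.03, 0.07 and 0.04. Mitosis and replication members moved unequally between KPCA.B and KPCA.A: 20 of 25 mitosis members but 5 of 15 replication members passed the fold. The counts of 25 and 35 stayed at 25 and 36 without the 5 macrophage-like cells with most member UMIs in each library, and that of 33 became 36.

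By the ratio of CPM, the mitosis members with the largest differences in macrophage-like cells were Cenpf and Hmmr against KPCA.C and Plk1 against KPCA.A. With 5 CPM added before the ratio, the largest log2 ratio of KPCA.B to KPCA.A was that of Mki67, 1.55, next to 1.53 for Cenpf. Cenpf had 23.4 CPM in KPCA.A, 77.0 in KPCA.B and 11.2 in KPCA.C, or 6.88-fold more in KPCA.B than in KPCA.C (5.77 to 8.24). Hmmr, a spindle-associated protein, had 10.6, 28.4 and 4.84 CPM, which is 5.87-fold (4.47 to 7.80). Plk1, a kinase of mitotic entry and spindle assembly, had 6.26, 22.5 and 4.26 CPM, so KPCA.B stood 3.60-fold above KPCA.A (2.50 to 5.31). Mki67 had 58.5, 181 and 34.2 CPM, and in KPCA.B lay close to the 173 CPM of the tumor epithelial-like cells of that library. Top2a had 113, 225 and 50.6 CPM, Ccnb1 10.4, 27.6 and 5.49 CPM, and Cdc20 5.73, 16.9 and 3.104 CPM. Cdk1 did not follow, with 21.3, 18.2 and 12.7 CPM and a ratio of KPCA.B to KPCA.A of 0.86 (0.67 to 1.09).

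Replication members of the macrophage-like cells differed less between the libraries. Mcm5 had 34.2 CPM in KPCA.A, 56.4 in KPCA.B and 16.8 in KPCA.C, and Uhrf1 20.6, 33.1 and 9.10 CPM. Mcm7 had 35.4, 57.4 and 15.02 CPM, the largest difference of the group between KPCA.A and KPCA.C at 2.36-fold (1.93 to 2.88), while Gins2, at 10.0, 11.7 and 8.74 CPM, and Tyms, at 27.0, 31.8 and 22.1 CPM, had the smallest. Rrm2 had 27.0, 35.8 and 14.1 CPM and Cdc6 8.59, 14.4 and 4.04 CPM. Pcna, which also serves DNA repair outside S phase, was highest in KPCA.A, with 152 CPM against 115 in KPCA.B and 105 in KPCA.C. It took 26.8% of the replication UMIs in KPCA.A, 16.7% in KPCA.B and 29.5% in KPCA.C.

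**Figure D2:**
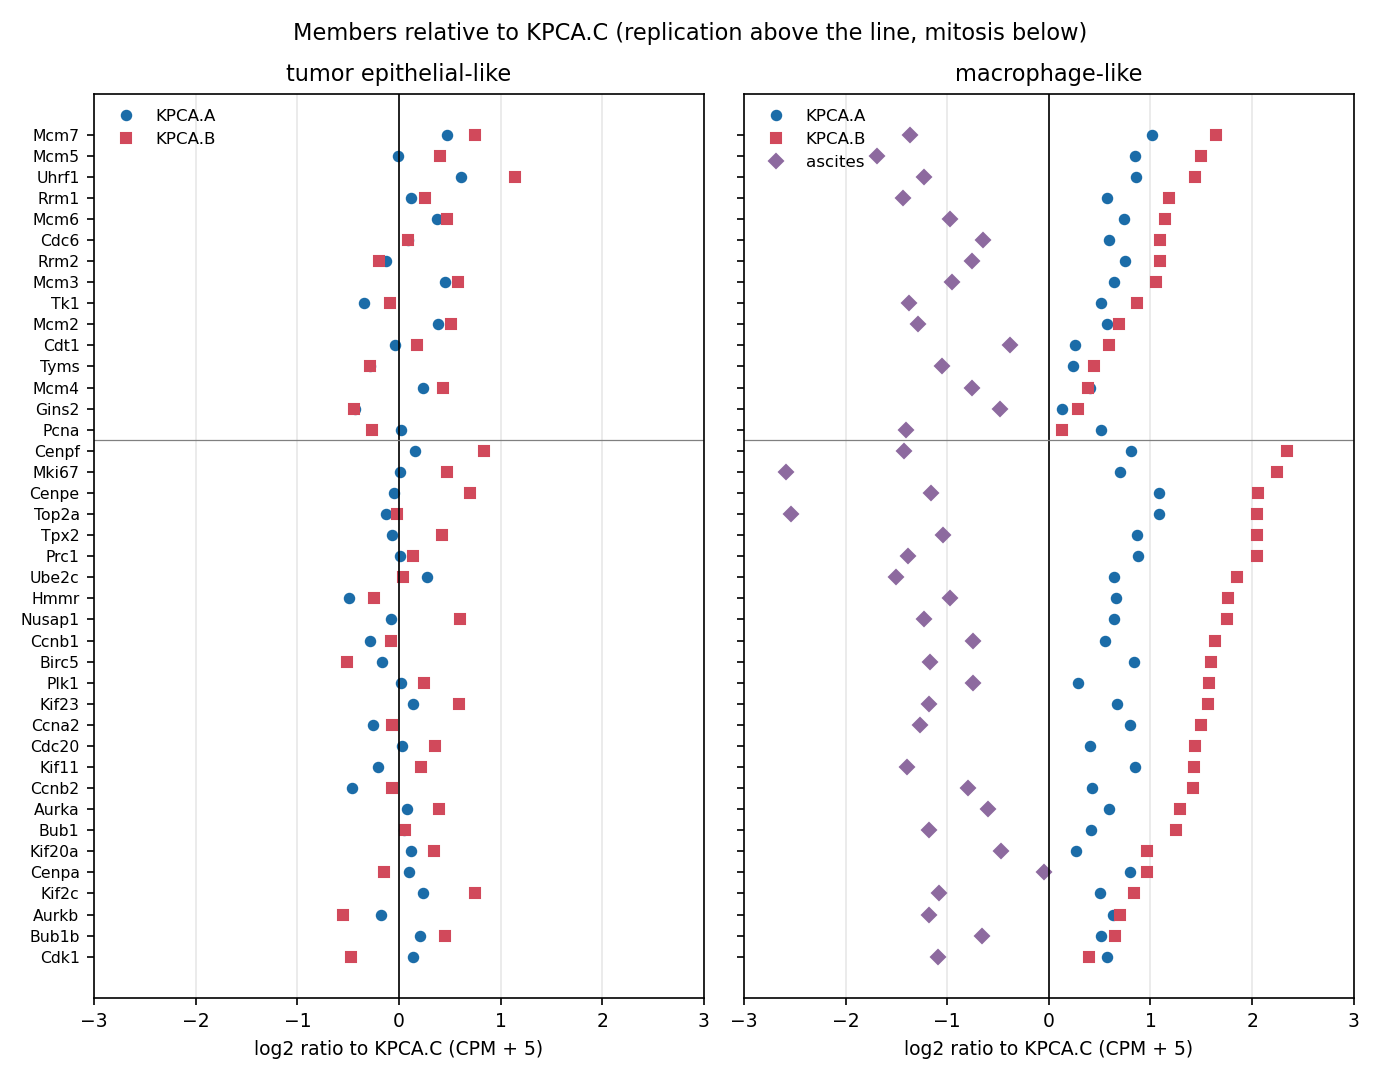
Log2 ratio of each member's level to KPCA.C (x axis, from CPM with 5 CPM added) in tumor epithelial-like cells (left) and macrophage-like cells (right), 1 row per member, replication above the grey line and mitosis below. Ratios of tumor cells scatter around 0, whereas all 40 macrophage-like ratios of KPCA.B lie above 0, and ascites, drawn for the 39 members with at least 50 UMIs in that pair, lies below 0.

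Tumor transcripts in the same macrophage-like droplets were measured beside the members, and their part in the members' levels was not tested. Summed over 9 tumor markers, macrophage-like cells had 109.5 CPM in KPCA.A, 31.6 in KPCA.B and 89.7 in KPCA.C, so the library with the highest member levels had the lowest marker level among the tumors, and 1 of the 9 markers was at 0 in KPCA.B. In KPCA.B the 114 cycling macrophage-like cells had 26.7 CPM of these markers and the other 493 had 33.0 CPM, with 2 of 9 markers higher in the cycling cells. In KPCA.A the cycling cells had 91.6 CPM and the others 109.7 CPM, and in KPCA.C 93.4 and 88.4 CPM. Their median macrophage marker level was 132 UMIs per 10000 against 108 in the other cells of KPCA.A, 98.7 against 133 in KPCA.B and 110.4 against 99.4 in KPCA.C. A further subset held the cells without a UMI of any tumor marker in their full counts. Its cycling share was 6.08% of 378 cells in KPCA.A (3.90 to 8.99%), 17.1% of 444 in KPCA.B (13.7 to 20.9%) and 3.61% of 416 in KPCA.C (2.03 to 5.88%). Shallow cells are more likely to lack such a UMI, and depth was not matched.

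Cycling shares were also measured in subsets of the macrophage-like cells. In KPCA.B, cells with genes of large peritoneal macrophages (Gata6, Timd4 and others), the resident macrophages of the abdominal cavity, had 27.0% cycling of 126 (19.5 to 35.6%), against 16.6% of the other 481 (13.4 to 20.3%). In KPCA.C the same split gave 7.69% of 78 (2.88 to 15.99%) and 5.47% of 951 (4.11 to 7.11%), and in ascites 0.696% of 718 (0.227 to 1.62%) and 2.12% of 471 (1.02 to 3.87%). The intervals overlap in each of these libraries, and the order in ascites was the opposite of that in the tumors. Cells with monocyte genes (Ly6c2, Ccr2 and others), which mark cells newly arrived from blood, had lower values than the rest in each tumor: 7.18% against 12.2% in KPCA.A, 16.4% against 22.8% in KPCA.B and 5.02% against 7.19% in KPCA.C. Those intervals overlap within each library. Retnla, a gene of alternatively activated macrophages, gave 18.9% of 233 cells with it (14.1 to 24.5%) and 18.7% of 374 without it (14.9 to 23.0%) in KPCA.B. The Lyve1 cells of KPCA.B, a gene of perivascular resident macrophages, had 12.8% of 86 (6.56 to 21.7%) against 19.8% of 521 (16.4 to 23.5%). Arg1, which consumes arginine, marked lower values in KPCA.A (7.91% against 12.5%) but not in KPCA.B (20.3% against 17.0%), with overlapping intervals in each.

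Macrophage-like cells of ascites held the fewest member transcripts. Their summed level over all members, 196 CPM, was close to that of the ascites neutrophil-like cells, 197 CPM, which rests on 29 UMIs. Replication members had 127 CPM in the macrophage-like cells (116 to 138) and 156 CPM in the neutrophil-like cells (98.9 to 234), and mitosis members 68.9 CPM (60.9 to 77.6) and 40.7 CPM (14.9 to 88.6). These intervals overlap. The 10% of macrophage-like cells with most member UMIs held 51.2% of them, and 15 of these cells were called cycling, a share of 1.26%, where 0 of 49 neutrophil-like cells allows a share of up to 6.12% (3 cells of the 49). Of 37 members tested against KPCA.A, all 37 were at least 1.5-fold lower in ascites, beside 57.7% of all genes tested. Against KPCA.B all 40 were lower, beside 58.3%, and against KPCA.C 37 of 39, beside 57.3%. These comparisons share the ascites library. The whole profile was shifted, with a median log2 ratio over all genes of -0.63, -0.62 and -0.55, and the members' medians of -1.85, -2.29 and -1.16 lie beyond that shift. The minimum of 50 UMIs was taken over both sums, and in ascites only Pcna, Cenpa, Mcm3 and Cdt1 reached it alone. The other members passed it with their tumor UMIs, which favors genes lower in ascites, for members and all genes alike. Over genes with 50 UMIs in both sums the median log2 ratio was -0.49, -0.44 and -0.44. C1qa, a macrophage marker, stood at 604 CPM in ascites macrophage-like cells, against 3027, 3520 and 2483 CPM in KPCA.A, KPCA.B and KPCA.C. The neutrophil gene S100a8 had 1251 CPM in the ascites class, against 6.62, 7.51 and 8.37 CPM. The part of these marker differences in the members' levels was not tested. Ascites also differed from the tumors in depth, in Cell Ranger version and in barcode set, which cannot be told apart from the fluid itself.

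Mki67 in ascites macrophage-like cells rested on 6 UMIs, 1.52 CPM, and was 119-fold lower than in KPCA.B (54.6 to 325) and 22.5-fold lower than in KPCA.C (10.3 to 61.7). Hmmr and Tk1, the salvage kinase for thymidine, had 0 UMIs there. Against the level that 3 UMIs would give over the class, and leaving the counting error of the tumor sums aside, Hmmr was at least 13.9-fold lower than in KPCA.A, 37.4-fold lower than in KPCA.B and 6.37-fold lower than in KPCA.C. For Tk1 the bounds were 17.9-fold, 24.7-fold and 10.5-fold. Over all ascites barcodes either gene had 5 UMIs, so both are counted in that library. A few members were nearer to the tumors: Cenpa, the centromeric histone, had 21.8 CPM against 22.7 CPM in KPCA.C, a ratio of 0.96 (0.75 to 1.22), and Cdt1 14.2 against 19.9 CPM. In ascites, Pcna had 36.5 CPM, Mcm5 1.77 CPM, Rrm2 6.33 CPM, Cdc6 0.76 CPM, Uhrf1 1.01 CPM, Top2a 4.56 CPM, Ccnb1 1.27 CPM, Cdk1 3.29 CPM and Cdc20 0.25 CPM.

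The balance between replication and mitosis differed between classes. Called cells of the lymphocyte classes were mostly called for replication alone: 72.0% of cycling T cell-like cells in KPCA.B, 54.5% in KPCA.C, 61.9% of cycling B cell-like cells in KPCA.B and 57.1% in KPCA.C. Plasma cell-like cells of KPCA.B resembled the tumor cells, with 58.0% called for mitosis alone and 17.4% for replication alone. Macrophage-like cells called for replication alone were 38.9% of the cycling cells in KPCA.A, 36.8% in KPCA.B and 55.2% in KPCA.C. Duct-like cells of KPCA.A had 245 CPM of replication members but 26.7 CPM of mitosis members, and Pcna made up 32.1% of their replication UMIs.

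**Figure D3:**
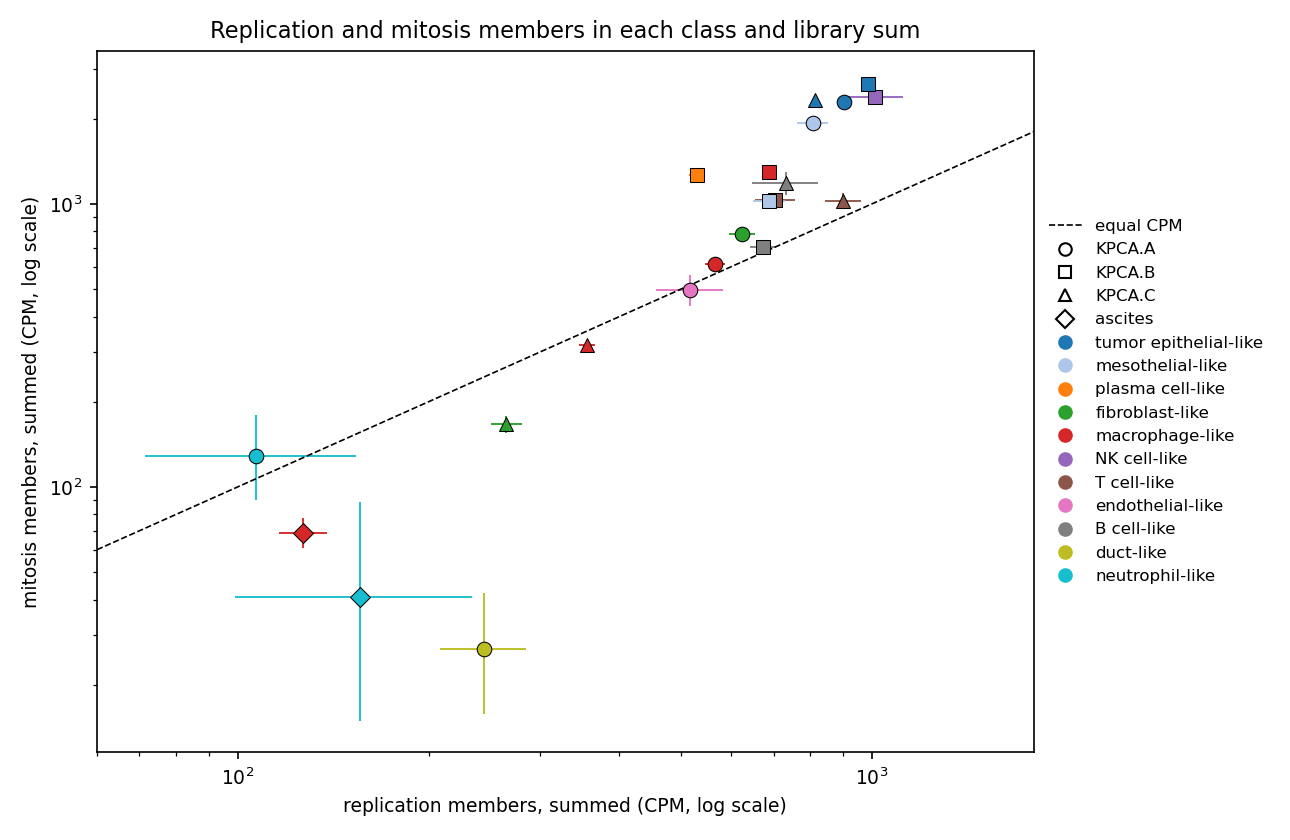
Summed level of the 15 replication members (x axis) and the 25 mitosis members (y axis), both in CPM on log scales, for each class and library with at least 50 cells (color for class, shape for library), with exact Poisson 95% intervals. The dashed line marks equal CPM. Tumor epithelial-like cells and the NK cell-like cells of KPCA.B sit at the top right. Duct-like cells, ascites cells, endothelial-like cells of KPCA.A, and fibroblast-like and macrophage-like cells of KPCA.C sit below the line.

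Sums over small classes rested on few cells. A single cell gave 34.8% of the member UMIs of the 59 NK cell-like cells of KPCA.B, 49.5% of those of the 69 B cell-like cells of KPCA.C and 30.0% of those of the 209 T cell-like cells of KPCA.B, against at most 6.59% in tumor epithelial-like, macrophage-like and plasma cell-like cells. Mitosis members took 70.2% of member UMIs in NK cell-like cells and 59.8% without that cell, and 59.4% in T cell-like cells of KPCA.B and 44.6% without it. The calls between KPCA.B and KPCA.C moved with these cells. In T cell-like cells, 3 of 25 members were higher and 3 lower in KPCA.B, beside 9.36% and 10.0% of all genes, and without the top cell of each library 1 was higher and 9 were lower of 23. In B cell-like cells, 2 of 24 members were higher and 8 lower, beside 13.2% and 10.9% of all genes, and without the top cells 9 were higher and 3 lower of 21. No direction between the libraries is therefore given for either class.

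The same 10 members were followed in the smaller classes. In T cell-like cells Mki67 had 105 CPM in KPCA.B and 145 in KPCA.C, Top2a 175 and 202 CPM, Ccnb1 24.3 and 13.8 CPM, Cdk1 12.6 and 19.7 CPM, and Cdc20 28.2 and 6.88 CPM. Of their replication members, Pcna had 118 and 220 CPM, Mcm5 44.7 and 53.1 CPM, Rrm2 20.4 and 54.1 CPM, Cdc6 4.86 and 9.84 CPM, and Uhrf1 34.01 and 31.5 CPM. B cell-like cells had 115 and 149 CPM of Mki67 in KPCA.B and KPCA.C, 149 and 128 CPM of Top2a, 8.31 and 34.6 CPM of Ccnb1, 7.91 and 31.9 CPM of Cdk1, and 5.14 and 42.5 CPM of Cdc20. The KPCA.C values of the last 3 rest on 12 to 16 UMIs each. B cell-like replication members were Mcm5 at 68.4 and 37.2 CPM, Pcna at 97.7 and 112 CPM, Rrm2 at 27.3 and 5.32 CPM, Cdc6 at 8.70 and 10.6 CPM, and Uhrf1 at 44.7 and 50.5 CPM.

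NK cell-like cells of KPCA.B had 499 CPM of Top2a, from 185 UMIs over 59 cells. This is the highest value of the classes with at least 50 cells, but without the top cell it was 368 CPM, below the 388 and 395 CPM of tumor epithelial-like cells of KPCA.B and KPCA.C under the same omission. With all NK cell-like cells Mki67 had 329 CPM, Ccnb1 48.5, Cdk1 24.3, Cdc20 24.3, Mcm5 89.0, Pcna 119, Rrm2 59.3, Cdc6 8.09 and Uhrf1 21.6 CPM. Endothelial-like cells of KPCA.A had 36.7 CPM of Mki67, 63.7 of Top2a, 5.79 of Ccnb1, 36.7 of Cdk1, 19.3 of Cdc20, 23.2 of Mcm5, 118 of Pcna, 11.6 of Rrm2, 7.72 of Cdc6 and 15.4 CPM of Uhrf1. Without their top cell Mki67 had 13.7 CPM and Top2a 29.4 CPM. In duct-like cells Pcna, at 78.5 CPM, and Mcm5, at 10.4 CPM, were the only 2 of these 10 members with more than 3 UMIs. Neutrophil-like cells of KPCA.A likewise had Pcna at 47.9 CPM and Mcm5 at 14.7 CPM, with at most 2 UMIs of each other member of the 10.

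Within the T cell-like cells the cycling share was higher among those with Cd8a or Cd8b1, genes of cytotoxic T cells. It was 17.5% of 40 in KPCA.B (7.34 to 32.8%) against 10.7% of 168 without them (6.47 to 16.4%), and 25% of 32 in KPCA.C (11.5 to 43.4%) against 10.4% of 134 (5.83 to 16.9%). Cells with Foxp3, the factor of regulatory T cells, had 32.0% of 25 in KPCA.C (14.9 to 53.5%) and 9.52% of 21 in KPCA.B (1.17 to 30.4%). All these intervals overlap. Any UMI of the gene was enough to enter a subset, and the part of cell depth in these differences was not tested.

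Fibroblast-like cells carried more member transcripts in KPCA.A than in KPCA.C. Of 33 members tested, all 33 were at least 1.5-fold higher in KPCA.A. Of all genes tested, 6.44% were higher and 6.86% lower. Without the top cell of each library, all 31 members still tested were higher. The UMI minimum was taken over both sums. Only Top2a, Cdk1, Prc1, Mcm2, Mcm3, Mcm6, Mcm7, Pcna, Rrm1 and Tyms reached it in KPCA.C alone. The other members tested passed it with their KPCA.A UMIs, which favors genes higher in KPCA.A, for members and all genes alike. The median log2 ratio was 1.76 over 19 mitosis members and 1.10 over 14 replication members, against 0.01 over all genes. Cenpf had 43.9 CPM in KPCA.A and 5.34 CPM in KPCA.C, 8.22-fold (5.27 to 13.3), and Mcm6, the smallest difference, 45.04 and 26.9 CPM, 1.67-fold (1.29 to 2.17). Cenpa had 39.9 and 5.34 CPM, and Rrm1, the large subunit of ribonucleotide reductase, 81.6 and 47.4 CPM. Mki67 had 67.6 and 10.9 CPM, Top2a 103 and 35.8 CPM, Ccnb1 16.6 and 3.12 CPM, Cdk1 45.04 and 12.02 CPM, and Cdc20 19.6 and 3.12 CPM. Replication members were Mcm5 at 31.4 and 7.35 CPM, Pcna at 109 and 53.4 CPM, Rrm2 at 29.2 and 6.01 CPM, Cdc6 at 8.49 and 3.79 CPM, and Uhrf1 at 36.9 and 6.90 CPM. In KPCA.A the 21 cycling fibroblast-like cells had 286 CPM of the 9 tumor markers and the other cells 174 CPM, with 4 of the 9 higher in the cycling cells. In KPCA.C the 6 cycling cells had 185 CPM and the others 146 CPM, so the library with the higher member levels also had the higher marker levels. The part of tumor transcripts in this difference was not tested.

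Mesothelial-like cells of KPCA.A had member levels below those of its tumor epithelial-like cells and above those of mesothelial-like cells of KPCA.B. Mitosis members summed to 1936 CPM in KPCA.A and 1023 CPM in KPCA.B, and replication members to 808 and 689 CPM. Without the top cell of each class, mitosis members had 1580 CPM in KPCA.A and 735 CPM in KPCA.B. Tumor epithelial-like cells of KPCA.A had 2263 CPM under the same omission. In KPCA.A, 25 of 40 members were at least 1.5-fold higher than in KPCA.B and 1 was lower, beside 13.4% and 7.98% of all genes. The member that was lower was Uhrf1, with 33.2 against 50.6 CPM, and the largest difference lay in Bub1b, a spindle checkpoint kinase, with 27.4 against 6.32 CPM. Cdk1 had 73.0 and 27.6 CPM, Top2a 261 and 107 CPM, Mki67 126 and 95.4 CPM, Ccnb1 65.1 and 28.7 CPM, and Cdc20 52.8 and 41.4 CPM. Kif11, the kinesin that pushes the spindle poles apart, had 45.6 and 10.9 CPM. Among the replication members, Mcm5 had 40.4 and 31.6 CPM, Pcna 126 and 90.2 CPM, Rrm2 33.2 and 15.5 CPM, and Cdc6 22.8 and 12.6 CPM. The top cell gave 18.2% (KPCA.A) and 18.6% (KPCA.B) of the member UMIs, and without these cells 23 of 36 members were higher and none lower. Mesothelial-like cells also express keratins, and cells past both their gate and the tumor epithelial-like gate were kept in this class. The 9 tumor markers summed to 1087 CPM in the 16 cycling cells and 1183 CPM in the 37 others of KPCA.A. In KPCA.B they summed to 503 CPM in the 12 cycling cells and 518 CPM in the 48 others, and Krt8 in the whole class had 360 CPM in KPCA.A and 52.3 CPM in KPCA.B. Tumor markers were thus higher in the library with the higher member levels, and their part in the difference was not tested.

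Mki67 weighed more in plasma cell-like cells than in any other class measured. Its protein coats mitotic chromosomes and is the standard stain for dividing cells. In KPCA.B plasma cell-like cells Mki67 reached 373 CPM, 3044 UMIs, against 173 CPM in the tumor epithelial-like cells of the same library, although all mitosis members summed to 1267 CPM against 2654 CPM, and in the 40 plasma cell-like cells of KPCA.C it reached 403 CPM. Mki67 thus took 29.5% of the mitosis UMIs in plasma cell-like cells (28.6 to 30.3%) and 6.51% in the tumor cells (6.23 to 6.80%). The smaller groups of plasma cell-like cells had 19.3% in KPCA.A (29 cells, 15.1 to 24.1%) and 22.0% in KPCA.C (40 cells, 20.3 to 23.8%). Tumor epithelial-like cells had 5.41% in KPCA.A and 5.31% in KPCA.C, macrophage-like cells of the tumors 9.51 to 13.9%, and B cell-like cells 16.3% in KPCA.B and 12.6% in KPCA.C.

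At equal depth the share in plasma cell-like cells lay above that of tumor epithelial-like and macrophage-like cells, but its interval overlapped those of some lymphocyte classes. At 1000 UMIs per cell, Mki67 gave 26.9% of the mitosis UMIs of the 57 plasma cell-like cells called for mitosis (21.8 to 32.6%), 7.58% in the 101 such tumor epithelial-like cells of KPCA.B (5.62 to 9.95%) and 11.3% in the 72 such macrophage-like cells (8.45 to 14.6%). Macrophage-like cells called for mitosis had 4.66% in KPCA.A (44 cells, 2.15 to 8.67%) and 10.9% in KPCA.C (26 cells, 5.56 to 18.7%). B cell-like cells called for mitosis had 23.4% in KPCA.B (16 cells, 15.9 to 32.4%), T cell-like cells 19.6% in KPCA.C (10 cells, 10.2 to 32.4%) and NK cell-like cells of KPCA.B 18.6% (4 cells, 8.39 to 33.4%), and these intervals overlap that of the plasma cell-like cells. Over all cells at 1000 UMIs, called or not, the share was 30.03% in plasma cell-like cells (25.004 to 35.4%) and 15.8% in B cell-like cells of KPCA.B (10.9 to 21.8%). A UMI of Mki67 was found in 20.6% of the plasma cell-like cells (16.2 to 25.6%), in 13.1% of the tumor epithelial-like cells (9.44 to 17.5%) and in 0.625% of the neutrophil-like cells of KPCA.A. The top plasma cell-like cell held 5.03% of the class's member UMIs, and without it the Mki67 share was 30.0%. Other members were low in this class: Cdk1 had 15.9 CPM, Ccnb1 19.9 CPM and Cdc20 30.2 CPM in KPCA.B, whereas Top2a had 207 CPM, Rrm2 62.2 CPM, Mcm5 33.96 CPM, Pcna 83.7 CPM, Cdc6 18.9 CPM and Uhrf1 27.5 CPM.

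Ube2c, the enzyme that tags cyclins for destruction, took a larger share in tumor epithelial-like than in macrophage-like cells. It made up 14.1% of the mitosis UMIs of tumor epithelial-like cells in KPCA.A, 10.3% in KPCA.B and 11.5% in KPCA.C, against 6.80 to 7.95% in macrophage-like cells of the tumors and 6.60% in plasma cell-like cells of KPCA.B (6.13 to 7.10%). The 40 plasma cell-like cells of KPCA.C had 9.82% (8.603 to 11.1%), close to the tumor cells of KPCA.B. B cell-like cells of KPCA.C had 12.3% (9.43 to 15.7%), and 8.93% without their top cell. Mesothelial-like cells were nearer to the tumor cells, with 10.2% in KPCA.A and 10.9% in KPCA.B.

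**Figure D4:**
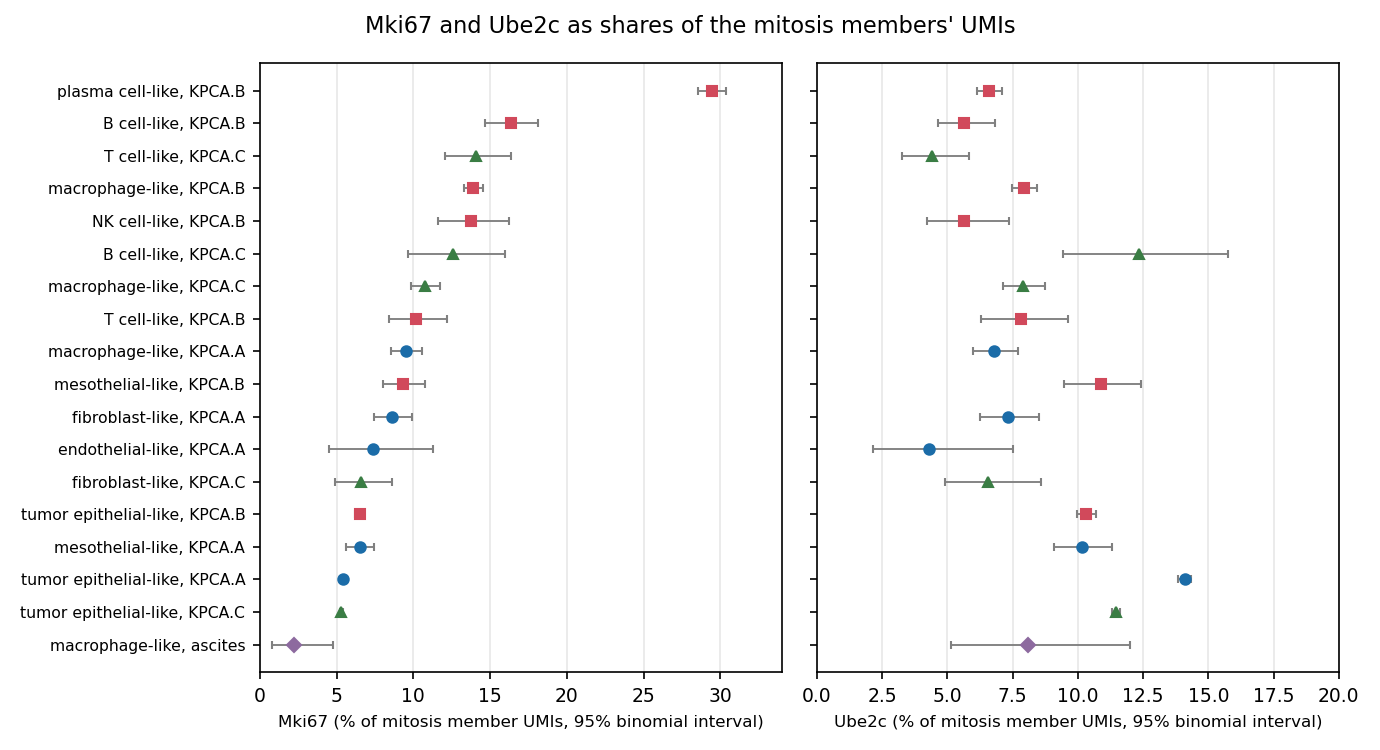
Mki67 (left) and Ube2c (right) as a percent of the mitosis members' UMIs (x axes), with 95% binomial intervals, for each class and library with at least 50 cells and 100 mitosis UMIs (color and shape for library as in the plot of cycling shares). Plasma cell-like cells of KPCA.B stand at 29.5% for Mki67, and tumor epithelial-like cells between 5.31% and 6.51%.

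Other cell cycle genes, outside the 40 members, were counted in the same way. In macrophage-like cells of KPCA.B against KPCA.C, 24 of 28 other replication genes tested and 35 of 38 other mitosis genes were at least 1.5-fold higher and none was lower, beside 15.4% and 12.5% of all genes. Against KPCA.A, 6 of 28 other replication genes were higher and 1 lower, while 28 of 37 other mitosis genes were higher and none lower, beside 12.8% and 12.1% of all genes. In tumor epithelial-like cells of KPCA.B against KPCA.A, the counts were 3 higher and none lower of 30 other replication genes, and 6 higher and 1 lower of 39 other mitosis genes. Neither share of higher genes exceeds the 15.9% of all genes, so these lists did not stand apart by the 1.5-fold call. At any fold, 34 of the 39 other mitosis genes were higher and 5 lower. Their median log2 ratio was 0.33, against 0.03 over all genes. Of the other replication genes 22 were higher and 8 lower, with a median of 0.15. In KPCA.B against KPCA.C, 11 other mitosis genes passed the fold upward and 2 downward. Of the other replication genes 6 were higher and 3 lower past it, beside 25.3% and 19.2% of all genes. Over the 21 class and library sums, the 10 genes outside the list whose log2 level followed the summed members most closely included Cdca8, Smc2, Ncapg, Pclaf, Cit, Brip1, Ncaph and Dlgap5, with Pearson correlations from 0.96 to 0.98. These sums share libraries and depth, so the correlations are a description. Among the members, Top2a had the highest correlation, 0.98, and Tyms and Cdt1 the lowest, 0.68 and 0.73.

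The D cyclins, which start the cycle by activating Cdk4 and Cdk6, were split by cell class. Ccnd1 had 826 CPM in the tumor epithelial-like cells of KPCA.A, 616 in KPCA.B and 834 in KPCA.C, and its highest level, 1710 CPM, stood in the duct-like cells of KPCA.A, which had few mitosis transcripts. Ccnd2 was the leading D cyclin of plasma cell-like cells, with 1330 CPM in KPCA.B, and of T cell-like cells, with 858 CPM in KPCA.B and 578 in KPCA.C. In tumor epithelial-like cells Ccnd2 had 158 CPM in KPCA.A, 6.69 in KPCA.B and 204 in KPCA.C. Ccnd3 was highest in NK cell-like cells, at 313 CPM, and Cdk4 had 249, 245 and 211 CPM in tumor epithelial-like cells of KPCA.A, KPCA.B and then KPCA.C.

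Some inhibitors and genes of quiescence were lower in macrophage-like cells of KPCA.B. Of the 12 on this list, 10 were tested, and 4 were at least 1.5-fold lower and none higher than in KPCA.A, where 12.1% of all genes were lower. Against KPCA.C, 5 were lower and 1 was higher, beside 12.5% and 15.4% of all genes. The higher one was Cdkn2c, an inhibitor of Cdk4 and Cdk6, with 13.7 CPM against 5.78 CPM. The median log2 ratios over the 10 were -0.11 and -0.39. Cdkn1a, which blocks cyclin-dependent kinases and answers to p53 among others, had 533 CPM in KPCA.A, 218 CPM in KPCA.B, 523 CPM in KPCA.C and 126 CPM in ascites. Btg1 and Btg2, which restrain growth and are also early response genes, had 1362 and 649 CPM in KPCA.A, 446 and 157 in KPCA.B, 1154 and 641 in KPCA.C, and 449 and 53.4 in ascites. In ascites macrophage-like cells, 6, 6 and 7 of the 10 genes tested were at least 1.5-fold lower than in KPCA.A, KPCA.B and KPCA.C. In the same order, 2, 1 and 2 were at least 1.5-fold higher. Of all genes tested, 57.7%, 58.3% and 57.3% were lower. The median log2 ratios over the 10 were -1.15, -0.62 and -1.07, against -0.63, -0.62 and -0.55 over all genes. Cdkn2a and Cdkn2d were highest in ascites among the macrophage-like cells. Cdkn2a, also a marker of the tumor cells, had 42.3 CPM there against 6.08 in KPCA.A, 8.28 in KPCA.B and 15.6 in KPCA.C, and Cdkn2d had 50.1 CPM against 28.1, 33.8 and 34.6 CPM. Neutrophil-like cells of KPCA.A had 1101 CPM of Cdkn1a and 3352 CPM of Btg1, the highest levels of these genes among the classes.

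**Figure D5:**
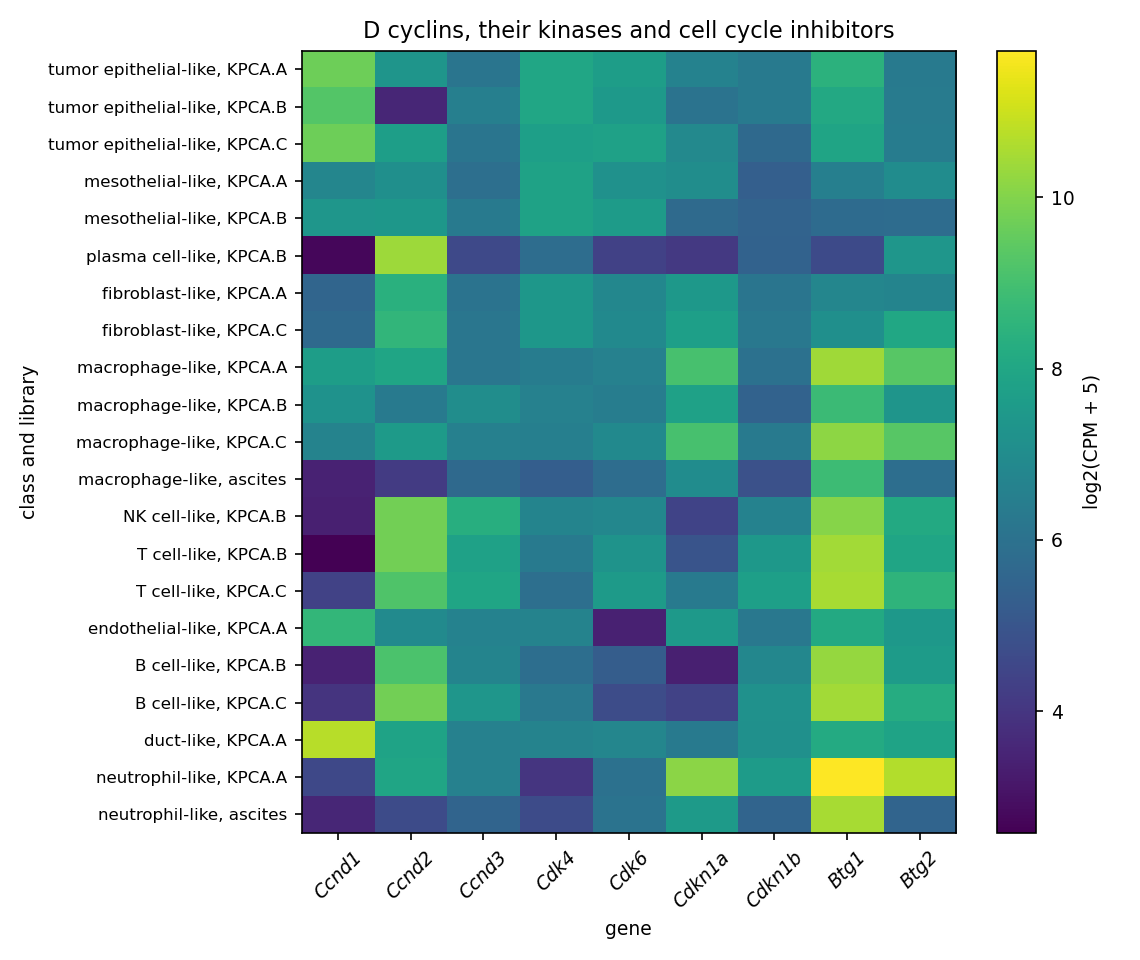
Level of D cyclins, their kinases and inhibitors (x axis) in each class and library with at least 50 cells (y axis), as log2 of CPM with 5 CPM added (color bar). Ccnd1 is bright in tumor epithelial-like and duct-like cells, Ccnd2 in plasma cell-like and lymphocyte classes, and Btg1 in immune classes other than plasma cell-like cells.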

How the data were processed

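Single-cell 3' RNA was measured in 4 mouse libraries, 1 per group. The authors deposited UMI counts per gene and barcode, raw and not normalized, made with Cell Ranger 4.0.0 (tumors) or 3.0.2 (ascites) per the file headers. The submitters' processing notes name Cell Ranger 3.1.0 and mm10. The labels' protocols give a 3' v2 kit and collagenase and DNase digestion of the tumors. The deposited gene and barcode lists carry names and no measured values.

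Barcodes needed 300 genes and 500 UMIs, with mitochondrial UMIs at 15% or less. A class needed 3 of its markers and a minimum of marker UMIs per 10000, set per class after the distributions were seen. Most cells past the gates of 2 classes were left out, as the only treatment of doublets. Some pairs were kept and given to the first class named here. These were duct-like or mesothelial-like with tumor epithelial-like, mesothelial-like with fibroblast-like, plasma cell-like with B cell-like, and T cell-like with NK cell-like. Classes with at least 50 cells were compared. Counts were summed per class and library and given as CPM (UMIs per 1000000 of the class). Log2 ratios had 5 CPM added, and genes with fewer than 50 UMIs in a pair were not tested. This minimum was over both sums, so a gene could pass it through the library where it was high. Shares have exact binomial, levels exact Poisson and folds exact conditional 95% intervals, which cover counting error only. Thinning used a fixed seed, and the steps were tested on simulated data (Python 3.11.15 with scipy 1.17.1, numpy 2.4.6, matplotlib 3.10.9 and pandas 2.3.3).

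The members and gene lists were chosen with earlier results of these data known. The 10 members named in every class, the members with the 2 largest and 2 smallest folds per comparison, and members that moved against their group are named. Subsets of a class, motifs and printed promoters were chosen after the data were seen. Alternatives to the filter, gates, thinning, call, scaling, weighting, fold, minimum and pseudocount are in the closing section. Of the genes that followed the members most closely, some are not reported here.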

Additional observations from a re-analysis of the deposited data

Results flagged for a closer look

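Cells that passed no gate, and so entered no class, were cycling more often than the neutrophil-like cells of KPCA.A, whose interval reaches 3.43%. The share at 1000 UMIs was 13.6% of 199 such cells in KPCA.A (9.14 to 19.1%), 23.3% of 129 in KPCA.B (16.3 to 31.5%) and 22.3% of 256 in KPCA.C (17.3 to 27.9%), while the 908 ungated ascites cells had 1.32% (0.685 to 2.30%).

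Barcodes above the mitochondrial limit, left out of all classes, also held cycling calls above that level when the same gates were applied. Tumor epithelial-like barcodes above the limit had 28.0% cycling of 465 in KPCA.A (23.9 to 32.3%) and 17.6% of 91 in KPCA.C (10.4 to 27.0%). Macrophage-like barcodes above the limit had 10.5% of 257 in KPCA.A (7.04 to 14.9%) and 9.85% of 264 in KPCA.C (6.53 to 14.1%), against 6.67% of 105 in KPCA.B (2.72 to 13.3%). Thus the order of KPCA.B over the other libraries, seen in the cells used, was not seen in these barcodes.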

How the results depend on the processing

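Of the alternative values of the main results 163 were the same within counting error, or within 1.5 times for a count, and 70 moved; for other values the numbers were 172 and 48. The order of macrophage-like cycling shares (KPCA.B, KPCA.A, KPCA.C, ascites) held in 9 of 10 alternatives and that of tumor epithelial-like shares in 8 of 10. Unthinned, KPCA.C stood above KPCA.A in macrophage-like cells (65.7% against 43.6%) and the tumor epithelial-like order was KPCA.A, KPCA.C, KPCA.B; at 500 UMIs it was KPCA.A, KPCA.B, KPCA.C. B cell-like calls turned from 2 higher and 8 lower to 9 higher and 3 lower without the top cells.

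Cycling shares are given for tumor epithelial-like cells (KPCA.A, then B, then C), then macrophage-like cells of these and ascites, then the median of the other classes. Thinned to 500 UMIs they were 26.8%, 25.8%, 24.8%, then 6.13%, 12.5% and 3.78%, then 4.78%. At 2000 UMIs they were 53.4%, 54.6%, 44.3%, then 16.3%, 25.04%, 10.6% and 3.90%. Unthinned they were 92.5%, 86.5%, 90.8%, then 43.6%, 65.7%, 65.7% and 6.44%, then 52.6%. With at least 3 UMIs they were 29.3%, 31.7%, 28.1%, then 5.15%, 13.0%, 2.62% and 0.336%, then 5.80%. With the mitosis group alone they were 30.7%, 34.8%, 30.0%, then 5.81%, 11.9%, 2.53% and 0.421%, then 6.02%. Without Pcna and Mki67 the macrophage-like shares were 4.18% in KPCA.C and 0.589% in ascites. The stricter cell filter gave 42.4% in KPCA.A tumor epithelial-like cells.

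Summed member levels of tumor epithelial-like cells (KPCA.A, KPCA.B, KPCA.C) were 2683, 3091 and 2539 CPM as means over cells and 3260, 3807 and 3197 CPM under the stricter filter. In KPCA.A and KPCA.C they were 3122 and 3111 CPM under the looser filter, and 3171 and 3111 CPM with mixed cells kept. In macrophage-like cells they were 774, 1395 and 514 CPM as means over cells, and 1228 and 2018 CPM in KPCA.A and KPCA.B under the stricter filter. The mitosis share of member UMIs was 72.6% and 73.6% in KPCA.A and KPCA.B tumor epithelial-like cells under the stricter filter, 73.4% in KPCA.B with mixed cells kept, 74.3% in KPCA.C with 1 more marker, and 53.4% in KPCA.A macrophage-like cells under the looser filter.

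At 2-fold, 16 members were higher in macrophage-like cells of KPCA.B than of KPCA.A and 13 in KPCA.A than in KPCA.C. In tumor epithelial-like cells 0, 1 and 0 were higher at 2-fold for KPCA.B over KPCA.A, KPCA.B over KPCA.C and KPCA.A over KPCA.C. Median-of-ratios scaling left 4 for KPCA.B over KPCA.C and 0 for KPCA.A over KPCA.C, and the stricter filter 0 for the latter. Without the 5 cells with most member UMIs in each library, a setting chosen after seeing the data, KPCA.B exceeded KPCA.A in 2. Fewer cells or UMIs enter under stricter settings, and otherwise the cause was not tested.

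No paired analysis was possible because each group had 1 library. Library, digestion, pooling and line cannot be told apart, and ascites also differed in depth and Cell Ranger version. Classes under 100 cells have wide intervals, and a count of 0 in the 49 ascites neutrophil-like cells allows up to 6.12%.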
